A study of Mus musculus with 1152 samples.

Results

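The 8 genes described here, Apoe, Clu, Cd36, Fabp4, Fabp5, Abca1, Scarb1 and Ch25h, handle lipids outside and inside cells. They were taken by name from a table of 23168 genes in single lymphatic endothelial cells (LECs) of the nasopharyngeal lymphatic plexus (NPLP) of mice, and all 8 were in the table. The genes were chosen by their levels and cluster patterns in these same cells, so every value below is a description and none was tested. The cells came from aged C57BL/6 mice, for which the labels give no age in weeks. Per the methods, mucosa from mice of both sexes was pooled and digested with enzymes, and cells positive for CD31 and podoplanin were sorted 1 per well into plates. Libraries were made with Smart-seq3, a full-length method that copies and amplifies the messenger RNA of each cell.

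All cells carried the same labels and formed 1 group, and 56.9% of the labelled cells were analysed here. Since the labels tie no cell to an animal, the cells stand for 1 pool without replicates. No group of adult mice was analysed here, so nothing below concerns a change with age. Values are natural logs of 1 plus reads per 10000 reads of the cell. A gene was counted as detected in a cell with at least 1 read. Depth ranged from 7046 to 10727631 reads per cell (median 148202.5). Shares of cells carry exact (Clopper-Pearson) 95% intervals, which cover counting error only. To set shares side by side at equal depth, reads were also drawn down to 20000 in every cell that had as many (thinned reads below), which left out 88 shallower cells. The 12 blocks of 96 consecutive cell numbers, with 18 to 83 analysed cells each, served as the measure of spread within the pool. The labels do not call these blocks plates. In 2 blocks, with 38 cells in all, the median depth was 2042788.5 and 2450279.5 reads, against 52583 to 231193 in the other blocks. Without these 38 cells the share of cells with a read lay inside the interval for all cells for each of the 8 genes. For Apoe, Clu and Abca1, leaving out so few cells could not have lowered the share below that interval. The LEC identity genes, which include Prox1, Flt4 and Pdpn, were detected in 87.7% to 100% of the cells.

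As background, cells move lipids between the blood, tissue and lymph as particles coated with apolipoproteins, and lymphatic vessels return such particles from tissue to the circulation. Scavenger receptors and fatty acid transporters take lipids up, and small binding proteins carry fatty acids through the cytosol. Excess cholesterol leaves the cell through membrane transporters, the genes of which are switched on by the liver X receptors (LXRs) when oxysterols, the oxidized forms of cholesterol, accumulate.

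The DNA upstream of Abca1 and Apoe is shown because these were the most widely detected of the 8 genes and had their highest levels in different clusters of cells. RefSeq promoter entries (GRCm38.p6) were found for 4 of the 8 genes. There was none for Clu, Fabp4, Fabp5 and Scarb1. The 250 bases before the annotated start are given 5′ to 3′ on the strand of the gene, which is the minus strand for both, with motif matches in capitals. The windows are chr4:53159896-53160145 for Abca1 and chr7:19699189-19699438 for Apoe.
Abca1: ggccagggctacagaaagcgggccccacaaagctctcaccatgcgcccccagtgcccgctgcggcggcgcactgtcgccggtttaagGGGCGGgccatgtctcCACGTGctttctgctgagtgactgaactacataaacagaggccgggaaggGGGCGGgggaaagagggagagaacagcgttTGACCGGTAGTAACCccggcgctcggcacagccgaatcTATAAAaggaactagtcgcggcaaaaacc
Apoe: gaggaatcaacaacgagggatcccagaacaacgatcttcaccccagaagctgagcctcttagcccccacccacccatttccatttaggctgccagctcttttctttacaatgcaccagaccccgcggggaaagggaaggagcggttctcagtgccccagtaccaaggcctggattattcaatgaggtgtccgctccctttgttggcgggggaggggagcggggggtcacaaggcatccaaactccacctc
Both strands were searched for TATAAA (the TATA box), GGGCGG (the GC box), CACGTG (an E-box), AGGTCA (a nuclear receptor half-site) and GGTTANNNNCGGTCA, a direct repeat of the kind bound by LXRs. The last was chosen after the Abca1 sequence had been read. In Abca1 the matches began at −163 and −97 (GGGCGG), −147 (CACGTG), −67 (the direct repeat, on the opposite strand) and −29 (TATAAA), counted from the base before the start as −1. No match was found in this Apoe window. Apoe has 3 entries in the table, and this is the one at the annotated end of the gene. Of the others, 1 held TATAAA, at −100 and −96, and 1 held no match. Over all 32851 promoter entries, windows of the same length held TATAAA in 12.4%, GGGCGG in 32.7%, CACGTG in 6.02%, AGGTCA in 14% and the direct repeat in 4 entries. A match is a description of letters and not a site shown to be used.

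The lipid carriers came first. Positions are whole genes in GRCm38, the mm10 assembly. Apoe (chr7:19696109-19699188, minus strand) encodes apolipoprotein E, which coats lipoprotein particles and binds lipoprotein receptors. It was detected in 80.6% of cells (interval 77.4 to 83.6%). Values ran from 0 through a median of 0.56 to 5.22, with a mean of 1.16 ± 1.34 (SD over cells). On the linear scale the highest cell held 184.1 Apoe reads per 10000. Apoe was thus found in most cells but at very unequal levels, and the top 66 cells held 66.6% of its summed linear level. With thinned reads the share was 55.5% (51.3 to 59.6%). Clu (chr14:65968483-65981547, plus strand) encodes clusterin, also called apolipoprotein J, a secreted chaperone that travels on lipoproteins. It was detected in 57.6% of cells (interval 53.7 to 61.4%, and 37.5% after thinning), with a median of 0.03, a highest value of 4.26 and a mean of 0.64 ± 1.01. Its top 66 cells held 76.5% of the summed level.

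Abca1 (chr4:53030787-53159895, minus strand), a transporter that passes cellular cholesterol to apolipoproteins, was the most widely and most evenly detected of the 8. It had a read in 86.7% of cells (interval 83.9 to 89.2%, and 76.8% after thinning). Values ran from 0 through a median of 0.96 to 3.31, with a mean of 0.94 ± 0.71. The top 66 cells held only 37.4% of the sum, the lowest such share among the 8 genes.

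The receptors were detected in fewer cells. Scarb1 (chr5:125277087-125341094, minus strand) encodes scavenger receptor B1, which exchanges cholesterol with high-density lipoprotein. It had a read in 20.3% of cells (interval 17.3 to 23.6%, and 14.4% after thinning) and a mean of 0.14 ± 0.40, with a highest value of 2.67. Cd36 (chr5:17781690-17888801, minus strand) encodes a scavenger receptor that takes up long-chain fatty acids and oxidized lipoproteins. Reads were found in 16.8% of cells (interval 14 to 19.9%, and 10.2% after thinning) with a mean of 0.10 ± 0.32 and a highest value of 2.19. The median cell had no read of either receptor, and the top 66 cells held 93.1% of the Scarb1 sum and 96.1% of the Cd36 sum.

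The fatty acid binding proteins and the oxysterol enzyme were concentrated in small sets of cells. The genes of both binding proteins lie on chromosome 3, Fabp4 at chr3:10204088-10208576 (minus strand) and Fabp5 at chr3:10012548-10016607 (plus strand). Fabp4 was detected in 17.5% of cells (interval 14.7 to 20.7%, and 11.4% after thinning), with a mean of 0.15 ± 0.46 and a highest value of 3.50. Fabp5 was the rarest of the 8, with reads in 25 cells (3.81%, interval 2.48 to 5.57%, and 2.29% after thinning). Its highest value was 2.52, so the few cells with Fabp5 included some with clear levels. Fabp5 has a processed pseudogene, Fabp5l2, which was detected in 3 cells, and how reads matching both were counted is not given in the sources used here. Ch25h (chr19:34473778-34475164, minus strand) encodes cholesterol 25-hydroxylase, which makes the oxysterol 25-hydroxycholesterol. It was detected in 30.2% of cells (interval 26.7 to 33.9%, and 21.1% after thinning), with a mean of 0.25 ± 0.56 and a highest value of 4.09. An annotated gene on the opposite strand, Gm26902, overlaps Ch25h and also had reads. Whether the counting used strand is not given, so reads of this pair may not be told apart.

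**Figure D1:**
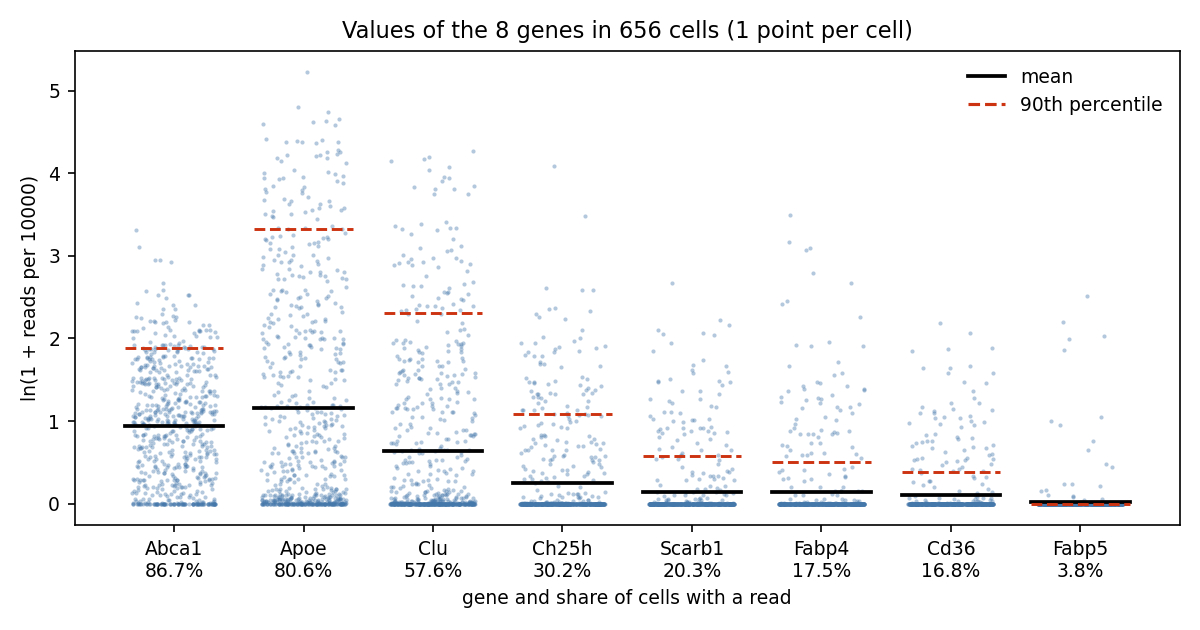
Values of the 8 genes in all cells, as natural log of 1 plus reads per 10000 (vertical axis), with genes in order of the share of cells with a read. Each point is 1 cell, the solid line is the mean and the dashed line the 90th percentile. The 90th percentile is 1.89 for Abca1, 3.33 for Apoe and 2.31 for Clu, and their highest values are 3.31, 5.22 and 4.26. Fabp5 lies at 0 in all but 25 cells.

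Levels were compared between genes per length, as linear reads per 10000 per kb of exon. The length was that of all annotated exons of a gene merged, not that of a single transcript. For Fabp4 it was 4.489 kb, the whole span of the gene. The order below depends on these lengths, and lengths of single transcripts were not tried. Apoe was the highest at 4.08, followed by Clu at 0.941, Ch25h at 0.512, Abca1 at 0.227, Fabp4 at 0.0990, Cd36 at 0.0563, Scarb1 at 0.0360 and Fabp5 at 0.0204. Abca1 was thus detected in the most cells but lay below Ch25h in level per kb, its exons being 10.36 kb long against 1.387 kb for Ch25h. The spread over the 12 blocks set how far this order held, given these lengths. Apoe ranged from 2.37 to 6.54 over blocks and lay above Clu in 12 of 12. Clu lay above Ch25h in 10 of 12, Ch25h above Abca1 in 11 of 12 and Abca1 above Fabp4 in 11 of 12. Further down, Fabp4 lay above Cd36 in 7 of 12 and Cd36 above Scarb1 in 8 of 12, so these neighbours were not set apart by the blocks. Block ranges overlapped for every pair of neighbours. The highest block of Clu, at 2.95, was block 8, 1 of the 2 deep blocks, which held 18 cells.

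**Figure D2:**
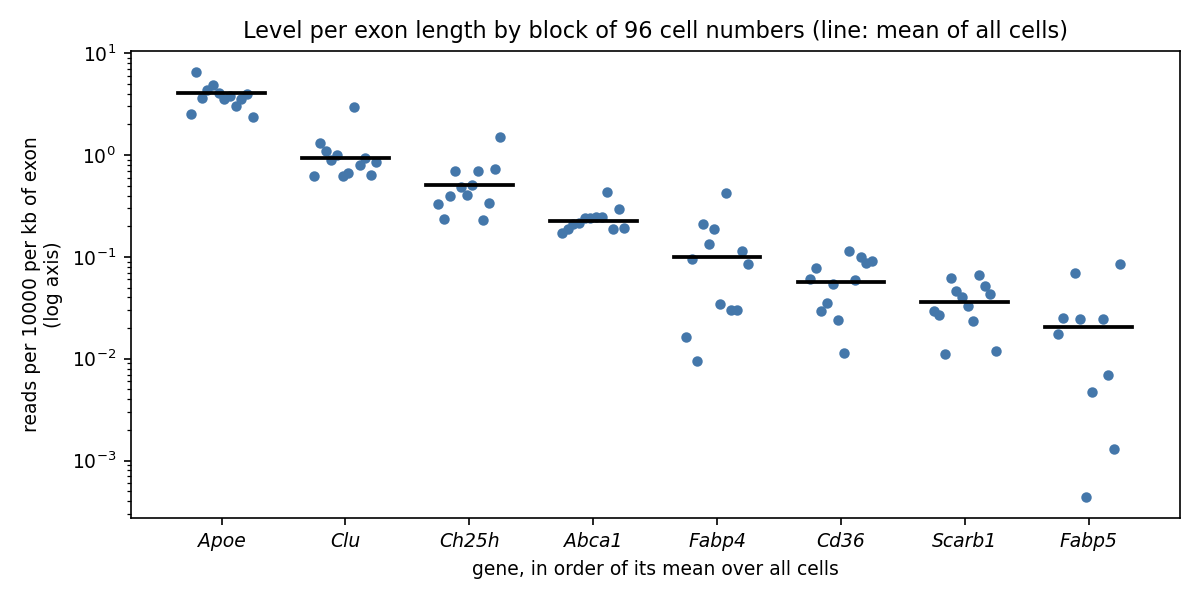
Linear reads per 10000 per kb of exon (log axis) for each gene, 1 point per block of 96 consecutive cell numbers, with a line at the mean over all cells. Blocks in which a gene had no read are not drawn, which affects Fabp5 in 2 of 12 blocks. Apoe, from 2.37 to 6.54, sits above the other genes except for the highest block of Clu (2.95), which passes its lowest blocks, and the points of Fabp4, Cd36, Scarb1 and Fabp5 overlap.

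The cells were clustered to see where each gene was high. The 8 genes and the lipid gene lists were kept out of the genes used for clustering, but other genes of the same cells defined the clusters, so differences between clusters are descriptions. At a resolution of 0.8 there were 6 clusters. Cluster 1 (28.05% of cells) was Ptx3+ capillary-like and cluster 3 (15.5%) Ptx3- capillary-like, each with 5 raised markers of its class. Cluster 5 (72 cells) was upstream-valve-like with 3 raised markers, Cldn11, Gata2 and Neo1. The other clusters stayed unnamed. Cluster 2 (26.2%) was led by Apoe, Clu and Comp, and also had Bmp4 among its leading genes. Its raised class markers were Foxp2, a precollecting marker, and Gja4, a downstream valve marker. The other precollecting markers, Lyve1 and Esam, were not raised in it but in cluster 3 and cluster 5. Cluster 4 (86 cells) was led by Ptn, Anxa3 and Stc1, and cluster 6 (40 cells) by the interferon-induced genes Rsad2, Gbp4 and Ifit3. Folds below are ratios of linear cluster means, each plus 0.1 reads per 10000. Between the highest and the lowest cluster all 8 genes differed by 2-fold or more, against 35% of the 9666 genes with reads in 10% of cells or more and 31.3% of the 8300 of these not used for clustering. Fabp5 lay under the 10% of cells asked of the background genes, so the like count is 7 of 7. Nothing is read from this count, since the 8 genes were chosen with their cluster patterns known. The median fold of the 8 was 5.08, and that of all genes tested was 1.78.

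Apoe was highest in cluster 2, where 89.5% of cells (interval 84 to 93.7%) had a read. The mean was 2.06 ± 1.59 (SD over cells) in cluster 2, 1.13 ± 1.19 in cluster 4, 0.95 ± 1.15 in cluster 1, 0.94 ± 1.15 in cluster 5, 0.84 ± 0.93 in cluster 6 and 0.36 ± 0.57 in cluster 3. Cluster 2 thus stood above all others and cluster 3, the Ptx3- capillary-like cells, below all others, with a 23.9-fold gap in linear level. Within blocks holding at least 3 cells of both clusters, cluster 2 lay above cluster 4 in 11 of 11 and cluster 6 above cluster 3 in 6 of 6. The neighbours in between were not set apart, with cluster 4 above cluster 1 in 7 of 11 blocks and cluster 1 above cluster 5 in 6 of 10. Cluster 2 held 26.2% of the cells and 63.1% of the summed linear level of Apoe. Depth changed the picture in cluster 3 most, where 68.6% of all cells had a read but only 22.4% (interval 14 to 32.7%) of thinned cells, against 75.3% (67.7 to 81.9%) of thinned cells in cluster 2. Apoe was the member with the largest correlation to the dissociation score, a summary of genes induced by tissue digestion (Spearman's rho 0.14), and the median score was 0.64 in cluster 2, 0.64 in cluster 3 and 0.37 in cluster 1. The part of dissociation in the level of Apoe was not tested.

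Clu had similar means in the top pair of clusters. Its mean was 1.08 ± 1.27 in cluster 2 and 1.04 ± 1.14 in cluster 4, and cluster 2 lay above cluster 4 in only 7 of 11 blocks. Cluster 4 lay above cluster 6, the next, in 3 of 5 blocks and was not set apart from it. It was 0.58 in cluster 6, 0.40 in cluster 5, 0.37 in cluster 1 and 0.25 in cluster 3. The fold from cluster 2 to cluster 3 was 9.40, and cluster 2 lay above cluster 3 in 10 of 10 blocks. Clusters 2 and 4, with 26.2% and 13.1% of the cells, held 55.6% and 20.5% of the summed level. At a finer resolution of 1.5 a part of cluster 2 reached a mean of 3.45, and the fold of Clu rose to 59.5.

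High levels of both carriers met in part of these cells. Values above 1 for both Apoe and Clu were found in 100 cells (15.2%), of which 56 lay in cluster 2 and 20 in cluster 4. They made up 32.6% of cluster 2 and 23.3% of cluster 4, against 4.35% of cluster 1 and 4.90% of cluster 3. In cluster 2 a further 56 cells passed this value for Apoe alone and 21 for Clu alone, and 39 passed it for neither, so the cluster was not uniform in the 2 genes that led it.

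Abca1 and Cd36 had their highest means in the Ptx3+ capillary-like cells, although for both genes cluster 1 lay above the next, cluster 6, in only 4 of 6 blocks. The mean of Abca1 was 1.34 ± 0.72 in cluster 1, 1.03 in cluster 6, 0.85 in cluster 2, 0.72 in both clusters 3 and 5 and 0.66 ± 0.57 in cluster 4. The share of cells with a read differed little, from 80.2% in cluster 4 to 90.8% in cluster 1. After thinning it was 90.1% (84.4 to 94.2%) in cluster 1 and 67.1% (55.1 to 77.7%) in cluster 4. The gene was thus detected widely, and clusters differed more in level than in the share of cells. The fold from cluster 1 to cluster 4 was 2.81, and cluster 1 lay above cluster 4 in 10 of 11 blocks. Cd36 was detected in 28.8% of cells of cluster 1 (interval 22.4 to 35.9%), in 20% of cluster 6, 15.3% of cluster 5, 11.6% of cluster 2, 10.5% of cluster 4 and 8.82% of cluster 3. Cluster 1 held 51.8% of its summed level. Its fold, 2.22 between clusters 1 and 5, was the smallest of the 8. The 5 lower clusters had means between 0.06 and 0.11 and were not set apart by the blocks.

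Fabp4 had its highest means in the upstream-valve-like cells and in cluster 4, and Fabp5 in the upstream-valve-like cells. The mean of Fabp4 was 0.38 ± 0.75 in cluster 5 and 0.28 ± 0.60 in cluster 4, where 29.2% and 30.2% of cells had a read. Cluster 5 lay above cluster 4 in 4 of 9 blocks, and after thinning the order turned, with 0.30 in cluster 5 and 0.32 in cluster 4, so these clusters were not set apart. Over all reads the mean was 0.14 in cluster 2, 0.11 in cluster 6, 0.08 in cluster 1 and 0.02 in cluster 3. From cluster 5 to cluster 3 the fold was 11.6, with cluster 5 higher in 7 of 10 blocks. Fabp5 had reads in 7 of 72 cells of cluster 5 (9.72%, interval 4 to 19%), in 8 cells each of clusters 1 and 2 (4.35% and 4.65%) and in 2 of 86 cells of cluster 4. No read was found in cluster 3, where a count of 0 allows up to 2.94% of cells (a limit of 3 cells of those looked at, while the exact interval ends at 3.55%), or in the 40 cells of cluster 6, where it allows up to 7.5% (exact interval to 8.81%). Cluster 5 lay above cluster 2 in 5 of 10 blocks. With so few cells the intervals overlapped for nearly all clusters. Cluster 5 held 57.5% of the Fabp5 sum, from 7 cells.

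Scarb1 followed Apoe in having its highest level in cluster 2, at 0.23 ± 0.51, with reads in 55 cells (32%, interval 25.1 to 39.5%). It was 0.16 in cluster 1, 0.12 in cluster 6, 0.09 in cluster 4, 0.07 in cluster 5 and 0.05 in cluster 3, where 12.7% (6.96 to 20.8%) of cells had a read. After thinning the share was 21.4% (15.2 to 28.8%) in cluster 2, 16.1% (10.8 to 22.8%) in cluster 1 and 9.41% (4.15 to 17.7%) in cluster 3. These thinned intervals overlapped. The fold from cluster 2 to cluster 3 was 3.85, and cluster 2 lay above cluster 1, the next in order, in 7 of 12 blocks. Ch25h was highest in cluster 4, at 0.55 ± 0.85, with reads in 42 of 86 cells (48.8%, interval 37.9 to 59.9%). It was 0.29 in cluster 3, 0.19 in clusters 1 and 2, 0.18 in cluster 6 and 0.15 in cluster 5. Cluster 4 lay above cluster 3 in 8 of 9 blocks, and the lower clusters were not set apart. This order for Ch25h depended on the clustering, since the largest part of the top cluster came from cluster 4 in 3 of 6 other clusterings and from cluster 2 in the remaining 3. The first 3 were another random seed, resolution 1.5 and a setting that let the 8 genes take part in clustering. The seed left the cluster means unchanged. The remaining 3 were no regression, 10 principal components and 3000 variable genes.

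**Figure D3:**
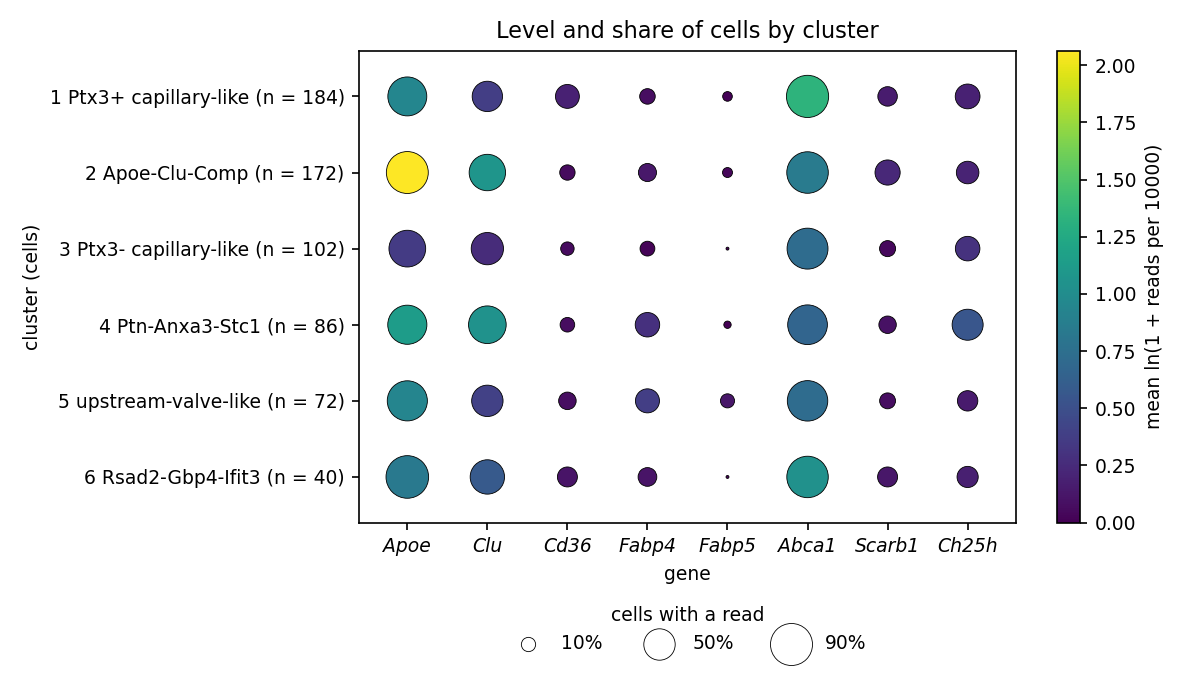
Mean natural log of 1 plus reads per 10000 (colour) and share of cells with a read (circle area) for each gene (horizontal axis) in each of the 6 clusters (vertical axis, with the number of cells). Apoe in cluster 2 has the highest mean, 2.06, Abca1 is detected in over 80% of cells in every cluster, and Fabp5 has no read in clusters 3 and 6.

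The next question was whether the same cells carried several of the genes. The median cell had reads of 3 of the 8 genes, and of 2 after thinning. No read of any was found in 6 cells (0.915%), and 32.3% of cells had 3. The largest number was 7, in 3 cells. Over the 28 pairs, Spearman's rho across cells had a median of 0.01 and ran from −0.11 to 0.19, with 19 pairs above 0 and 5 beyond 0.1 in size. Cells of 1 pool are not replicates, so these are given without a p-value. The value of a pair also reflects the depth that the values of a cell share.

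The largest values were for Apoe with Clu and for Fabp4 with Fabp5. Apoe and Clu had a rho of 0.19 across all cells, 0.28 after thinning, 0.17 with cluster means removed and 0.22 with block means removed. Removing means gives the cells without a read a separate value in each cluster or block, so those ranks partly follow cluster or block. Among thinned cells with Apoe, 47% (41.4 to 52.7%) also had Clu, against 25.7% (20.4 to 31.5%) of those without Apoe. Fabp4 and Fabp5 had a rho of 0.19, and 13 of the 25 cells with Fabp5 also had Fabp4, 6 of them in cluster 5. Among thinned cells with Fabp4, 12.3% (5.47 to 22.8%) had Fabp5, against 0.994% (0.324 to 2.30%) of those without. In both pairs one gene was thus found more often in cells with the other, and the value for Fabp4 and Fabp5 rests on 8 thinned cells with both.

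The other pairs of related function given here showed little or none of this, apart from Apoe and Scarb1. The efflux transporter Abca1 and Apoe, its lipid acceptor, had a rho of −0.06, and Abca1 was found in 76.8% of thinned cells with Apoe and 76.7% of those without. Clu and Abca1 stood at −0.09 and Clu and Cd36 at −0.11. Abca1 had a rho of 0.11 with each of Cd36 and Scarb1, also after thinning. With cluster means removed the values were 0.01 and 0.06. Nothing is read from this fall, since most cells had no read of Cd36 and most had none of Scarb1. Apoe and Scarb1 had a rho of 0.09 (0.13 after thinning), and Scarb1 was found in 18.1% (14 to 22.8%) of thinned cells with Apoe and 9.88% (6.50 to 14.2%) of those without. These intervals just overlapped.

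**Figure D4:**
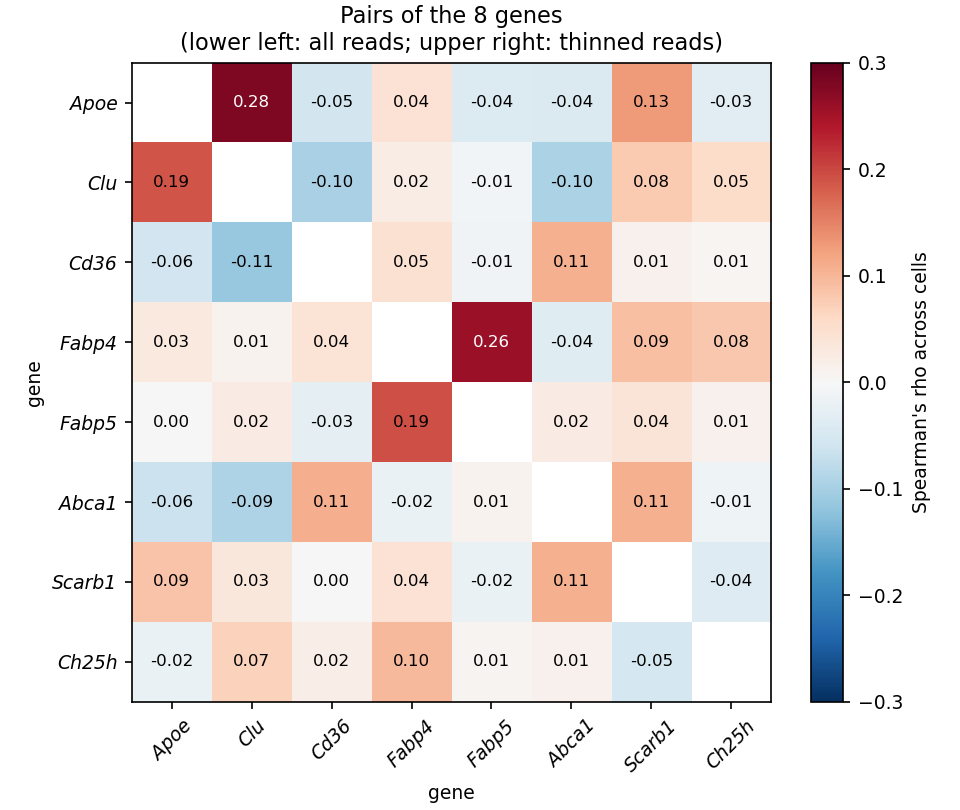
Spearman's rho across cells for the 28 pairs of genes (both axes), with all cells and all reads in the lower left and thinned reads in the upper right. The colour runs from −0.3 to 0.3. Apoe with Clu (0.19 and 0.28) and Fabp4 with Fabp5 (0.19 and 0.26) stand out, and the other pairs lie between −0.11 and 0.13.

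For each gene the 5 most alike and 5 least alike genes were sought by rho across all cells, among the 5279 genes with reads in 30% of cells or more. Apoe was most alike with Clca3a1 and Parm1 (both 0.34), Tspan7, Tsc22d1 and Tm4sf1 (each 0.31). Its lowest values were with Syne1, a nuclear envelope protein (−0.33), and Lyve1, the hyaluronan receptor of lymphatic capillaries (−0.32). Clu was most alike with Bcam (0.29) and Procr, the endothelial protein C receptor (0.27), and also had its lowest value with Lyve1 (−0.29). Both carriers therefore ran against Lyve1, which was one of the genes used for clustering. With cluster means removed, the values with Lyve1 were −0.22 for Apoe and −0.25 for Clu, with the limit given above for this step. Abca1 had another set, led by F8, which encodes coagulation factor VIII (0.32), Gm525 (0.32) and the scavenger receptor gene Stab1 (0.31), with Vim, the intermediate filament vimentin, lowest (−0.33). For Cd36, Fabp4, Fabp5, Scarb1 and Ch25h no gene passed 0.20, and such weak values in sparse reads are no finding.

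The other genes of each pathway placed the 8 in context. Of 9 genes of cholesterol efflux and the LXRs, 6 were detected in more than 50% of cells, among them Npc2 (87.2%), Abcg1 (71.8%) and both LXR genes, Nr1h2 (69.97%) and Nr1h3 (69.4%). Abcg1, the partner transporter of Abca1, was also highest in cluster 1, at 0.80, and lowest in cluster 2, at 0.47. Its rho with Abca1 was 0.17. In contrast, none of 20 genes of cholesterol synthesis and its control passed 50%, 13 lay between 10% and 50% and 7 below 10%, and the highest were Pmvk (47.9%), Insig2 (44.8%) and Srebf2 (40.4%). Of these, 6 of 13 tested differed by 2-fold or more between clusters, against 35% of all genes tested. The median fold was 1.95, against 1.78 for all genes tested.

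Among 10 apolipoproteins and lipid carriers, Apoe, Clu and Apod (48.02%) were the only ones detected in over 10% of cells. Apoc1 and Apoa1 had 0 reads in every cell, which allows up to 0.457% of cells by the same limit of 3 cells (exact interval to 0.561%). Apod was highest in cluster 6, at 0.85, and its rho with Apoe was 0.22. Among the lipoprotein receptor genes, Lrpap1, a receptor chaperone, was detected in 77.9% of cells and Scarb1 in 20.3%, while Lrp1 and Lrp8 lay at 3.05% and 1.52%. Among 14 genes of fatty acid uptake and binding, Acsl5 (77.3%), Dbi (74.8%) and Gpihbp1 (73.2%) were far more widely detected than Cd36, Fabp4 and Fabp5. Lpl, which encodes lipoprotein lipase, was detected in 28.7% and was highest in cluster 5, at 0.42.

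Of the 6 oxysterol genes analysed, Ch25h had the highest share, followed by Osbp (22.3%) and Cyp27a1 (10.4%). Gpr183, the receptor for an oxysterol made from the product of Ch25h, was detected in 1.83% of cells and Cyp7b1, the enzyme of that further step, in 0.915%. Genes of lipid droplets and hydrolysis were led by Mgll (85.8%) and Pnpla2 (77.9%), and 8 others lay between 2.90% and 39.2%. Of 12 genes of fatty acid oxidation and the PPARs, Hadha (58.7%), Acadl (54.1%) and Hadhb (51.98%) passed 50%, and Pparg, a known regulator of Fabp4 and Cd36, was detected in 26.1%. All 5 caveolar genes were detected in 85.7% to 100% of cells. The 8 genes thus included the most widely detected lipid carriers and oxysterol gene and the second most widely detected gene of the efflux list. Cd36 and Fabp4 ranked midway in their list and Fabp5 low. Scarb1, at 20.3%, lay above the median of the lipoprotein receptor genes (11.6%).

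**Figure D5:**
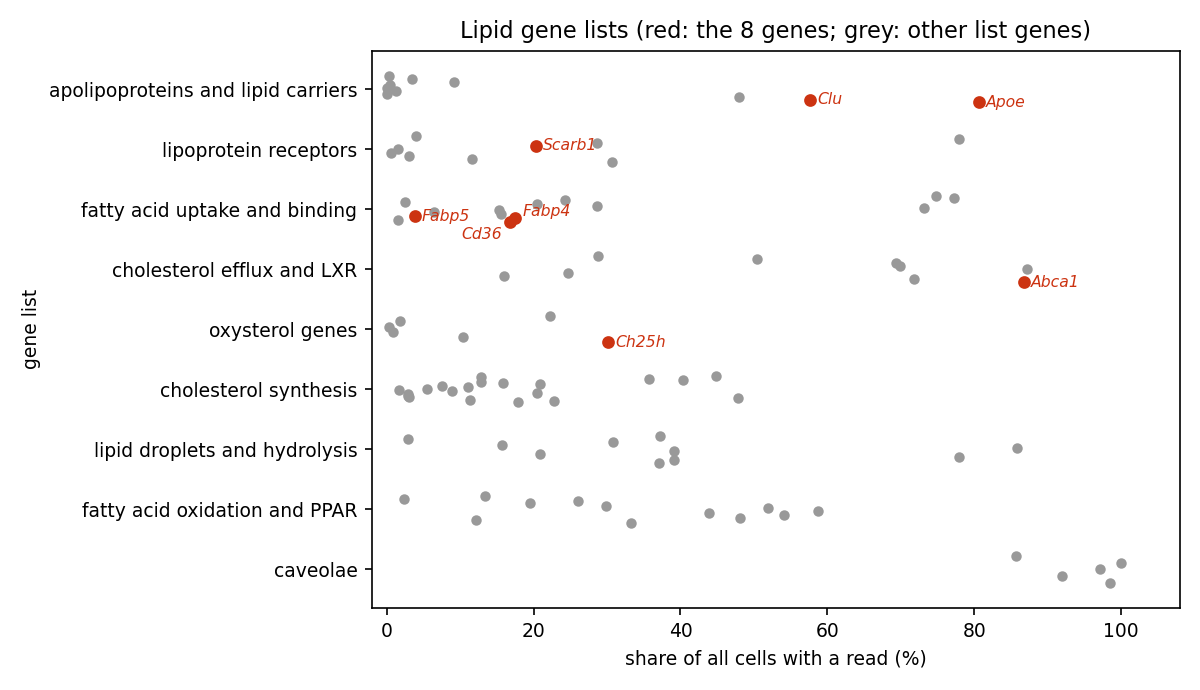
Share of all cells with a read (horizontal axis, percent) for every analysed gene of 9 lipid lists (vertical axis), 1 point per gene, with the 8 genes in red and named. Apoe (80.6%) and Clu (57.6%) lie to the right of the other carriers, and no cholesterol synthesis gene lies above 47.9%.

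Macrophages, fat cells and blood capillaries are known sources of several of these genes, and their markers and those of fibroblasts are given here. Of 10 macrophage genes 9 were analysed. C1qa was at 0 in all cells, C1qb was detected in 0.457%, Ptprc in 0.915%, Csf1r in 1.52%, Fcer1g in 9.60% and Cd68 in 12.8%. Mrc1, detected in 50.8%, is also a marker of Ptx3+ capillary LECs. The summed linear level of the list ran from 0.898 per 10000 in cluster 2 to 2.53 in cluster 1, of which Mrc1 alone gave 0.375 and 1.87. Without Mrc1 the sum was 0.662 in cluster 1 and 0.523 in cluster 2, where Apoe was highest, and lowest in cluster 3 (0.217), where Apoe was lowest. Cd68 was highest in cluster 2 (0.250 per 10000), close to cluster 5 (0.219) and cluster 1 (0.214). It was 0.126 in cluster 4, 0.098 in cluster 3 and 0.073 in cluster 6. The rho of Cd68 with Apoe was 0.11, against −0.20 for Mrc1. The part of macrophage reads in the level of Apoe was not tested. Cells with a read of any macrophage gene other than Mrc1 had a mean Apoe of 1.26 at a median depth of 184910 reads, and cells without had 1.13 at 125436 reads. After thinning, Apoe was detected in 58.6% (50.8 to 66.1%) and 54.1% (49.1 to 59.1%) of them. Leaving out the cells with such a read kept all 8 shares within their intervals. Of 6 fat cell genes only Cfd was analysed, and it was at 0 in all cells. Of 7 blood capillary genes analysed, Flt1 was detected in 2.44% of cells, Rgcc in 6.25% and Car4 in 9.15%, whereas Aqp1 (96.04%) and Emcn (96.2%) were in nearly all. The summed level of this list ran from 16.7 per 10000 in cluster 5, where Fabp4 was highest, to 78.5 in cluster 1, where Cd36 was highest. Aqp1 was itself among the leading genes of cluster 1. No sum without Aqp1 and Emcn was made, so this sum does not single out blood capillary reads. The part of blood capillary reads in Cd36 was not tested. Of 6 fibroblast genes, Dcn was detected in 30.03% of cells and the others in at most 4.73%. Dcn was highest in cluster 4 (2.03 per 10000), where Ch25h was highest and Clu and Fabp4 were high, and lowest in cluster 3 (0.110). The other 5 fibroblast genes summed to 0.0732 in cluster 4 and were highest in cluster 1 (0.648). Their part in these genes was not tested.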

How the data were processed

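Per the methods, the authors used STAR for alignment to mm10 and featureCounts of Subread for counting per gene, dropped cells with under 2000 genes or over 10% mitochondrial reads, and normalized with Seurat 4.1.0. Whether strand was used and how multiply matching reads were treated is not given in the sources used here. The deposited values are natural log values, ln(1 + reads per 10000): the exponential minus 1 summed to 10000 in every cell, whereas base 2, which the methods name, gave sums of 2848.75 to 4937.53. Taking the smallest value of a cell as 1 read, 100% of values were whole reads within 0.01 reads. PCR copies were not collapsed. Of 1152 labelled cells 656 were analysed here and 496 were not. Clusters 1 to 6 held 184, 172, 102, 86, 72 and 40 cells, and 568 cells had the 20000 reads needed for thinning.

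The members, lists and tests were chosen with earlier results of these data known. The named genes were the 8 members, the genes of the lipid and cell type lists with the highest shares, and the 5 most and least alike genes of each member. Lists were described by counts and medians, and no p-value was computed, since 1 pool has no replicates. Reads were thinned to 20000 per cell without replacement. Clustering used Seurat 5.3.0 (R 4.3.3): 2000 variable genes without the members and lipid lists, regression of depth, mitochondrial share, dissociation and ribosomal scores, 15 principal components, and the lowest resolution giving at least 5 clusters. A cluster was named with at least 3 markers of a class raised 1.5-fold in at least 10% of its cells. These limits were chosen with the data in view, and rebuilt names need not match the cells of the study's classes. No doublet caller was run, as 1 cell was sorted per well. Intervals were computed with scipy 1.17.1. Gene positions and exon lengths came from GENCODE M21 (GRCm38), which held 22258 of the 23168 symbols. On simulated data, reads were recovered in 100% of cases over 23168 genes, 96.5% of cells fell in clusters dominated by their own simulated class, and the 2-fold rule found 97.0% of genes planted at 4-fold among 2000. Alternatives covered detection, depth, scale, cells kept and clustering. Some genes of the lipid lists are not reported here.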

Additional observations from a re-analysis of the deposited data

How the results depend on the processing

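The median share of cells with a read over the 8 genes was 25.2%. It moved to 8.77% with a value above 1 required for detection, to 17.8% with thinned reads and to 28.96% once the 25% of cells with fewest genes were dropped, and stayed within the spread between blocks without cells carrying a macrophage gene. The median of the 8 mean levels, 0.20, moved to 0.45 as the log of the linear mean and to 0.29 in log2 units. Both change the scale by construction. The median pairwise rho, 0.01, moved to −0.040 with the number of detected genes regressed. In that setting single pairs ran from −0.68 (Fabp5 with Scarb1) to 0.66 (Fabp4 with Fabp5). The regression gives cells without a read different values by their number of genes, so ranks of sparse genes partly follow that number. Nothing is read from this shift, and its cause was not tested. The median rho kept within its spread with thinned reads, cluster or block means removed, and Pearson's r. The median fold between clusters, 5.08, ran from 2.17 (1 in place of 0.1 added to the means) to 7.04 (resolution 1.5). In the 6 other clusterings the largest part of the top cluster came from the same cluster as before in 6 of 6 for Apoe, Clu, Cd36, Fabp4, Fabp5 and Abca1, in 5 for Scarb1 and in 3 for Ch25h. These counts include another random seed, which left the folds and cluster means of the 8 genes unchanged. They also include a setting in which the 8 genes and lipid lists could take part in the clustering. Agreement in both settings was largely fixed beforehand. Without regression Apoe, Clu and Ch25h shared their top cluster, and its largest part was only 45.8% of its cells. The fold of Apoe ran from 10.4 to 28.8, of Clu from 7.04 to 59.5, of Cd36 from 2.22 to 5.06 and of Abca1 from 2.10 to 6.97. Single shares moved for 8 of 8 genes with thinned reads, all downwards, and for none without macrophage-gene cells. Leaving out the 2 deep blocks, an alternative chosen after seeing the data, moved none of the 4 medians. No paired analysis was possible because there is 1 group. Depth limits the shares of all 8 genes, and the thinned share of Fabp5 has an interval from 1.22 to 3.88%.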
